A study of Mus musculus with 25 samples.

Results

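The non-immune segments of peri-injured lung were compared with those of healthy lung, as 4 segments (regions 6, 9, 10 and 12) against 3 (regions 1, 3 and 13). They are 7 of the 24 segments of the series and were chosen by their labels alone. A non-immune segment is the part of a region that stained for DNA but not for CD45, the surface protein carried by leukocytes, so that epithelial, endothelial and mesenchymal cells are collected in it together.

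Both lungs came from male mice that carry the I73T allele of SP-C, control included. The healthy regions came from 1 mouse gavaged with corn oil (labelled as untreated, day 0), and the peri-injured regions from 1 mouse 14 days after tamoxifen, as did 5 injured regions (4, 5, 7, 8 and 11) that are given here only for reference. The labels state a single gavage of 175 mg/kg, whereas the methods of the study describe another schedule. Tamoxifen activates a recombinase expressed from the Rosa26 locus, which removes a neomycin cassette from the Sftpc gene and so raises the mutant protein. The classes were set by the look of the tissue. By the study's account, peri-injured regions 6 and 10 lay nearer to the injury and regions 9 and 12 farther from it, a split that the labels do not give and that was not tested here. As each class came from 1 mouse, a difference from healthy regions cannot be told apart from a difference between the 2 mice, and every p-value below is over regions of a section, and is smaller than a statement about animals would need.

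SP-C is a small hydrophobic protein of surfactant, the film that lowers surface tension in the alveolus. It is made by alveolar type II cells, which also renew the alveolar lining after damage. The I73T form is sorted to the wrong membranes of these cells, and is a known cause of inherited interstitial lung disease. In lungs injured in this way, type II cells, fibroblasts and the capillary bed are remodeled around patches of damage, and all 3 kinds of cell fall within the non-immune gate.

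Whole-transcriptome probes were counted in each segment, and each probe is listed by a barcode identifier that begins with RTS. The files do not pair these identifiers with gene symbols, so that no gene or pathway is named and the labelled cell type was not checked against marker genes. Results are therefore given for 4 probes by identifier, and for all others by rank and count. In tissue segments, fewer cells of a type and less RNA per cell cannot be told apart.

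Depth was uneven within both classes. The total count was 204150, 249104 and 80259 in healthy regions 1, 3 and 13, and 558129, 279999, 671249 and 201239 in peri-injured regions 6, 9, 10 and 12. The classes overlapped, as peri-injured region 12 was no deeper than healthy regions 1 and 3, and healthy region 13 was the shallowest. The mean was 427654 ± 223180 (SD, n = 4) against 177838 ± 87444 (SD, n = 3), with a two-sided exact permutation p of 0.171. The collected area was 27759, 24217 and 21304 in the healthy segments, and 49140, 29205, 74950 and 22258 in the peri-injured ones, in a unit that the worksheet does not name. Per unit of area, 7.35, 10.3 and 3.77 counts were obtained in healthy regions 1, 3 and 13, and 11.4, 9.59, 8.96 and 9.04 in peri-injured regions 6, 9, 10 and 12. Healthy region 13 again had the lowest value, and the classes overlapped (exact permutation p = 0.229).

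**Figure D1:**
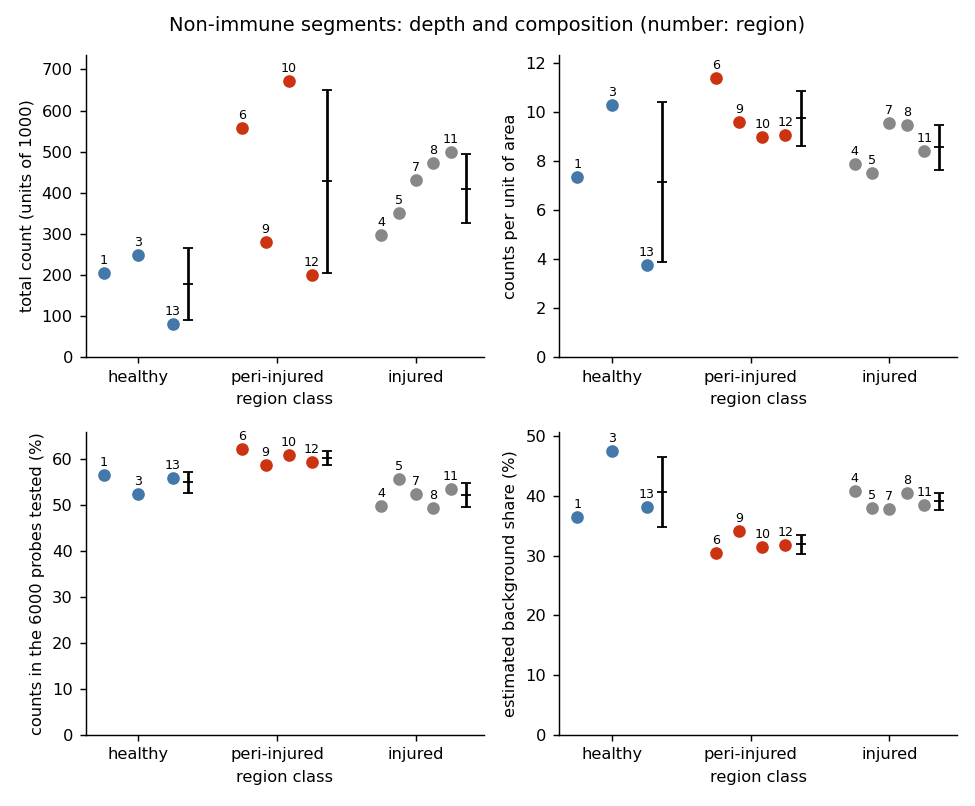
Total count (in units of 1000), counts per unit of area, percent of counts in the 6000 probes tested, and estimated percent of background counts, each by region class; points are non-immune segments with their region number, and bars are mean ± SD (n = 3 healthy, 4 peri-injured and 5 injured). Peri-injured segments had 58.7 to 62.1% of counts in the tested probes, all above the healthy segments, and 30.4 to 34.1% of background, all below them.

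The composition of the libraries separated the classes where depth did not. The 6000 probes with the highest mean share over the 12 non-immune segments held 56.4, 52.3 and 55.9% of the counts in healthy regions 1, 3 and 13, and 62.1, 58.7, 60.8 and 59.3% in peri-injured regions 6, 9, 10 and 12. The lowest peri-injured segment was above the highest healthy one. To estimate background, the 2018 probes that were least abundant in the CD68 segments were taken. Their mean count was extended to all 20175 probes and set against the total. Probes low in CD68 segments may still carry signal of non-immune cells, which was not tested, so a difference in this share may not be background alone. The background share was 36.5, 47.5 and 38.2% in the healthy segments and 30.4, 34.1, 31.5 and 31.7% in the peri-injured ones. The exact Poisson 95% intervals, which cover counting error only, spanned 35.7 to 37.3% in healthy region 1, the lowest of its class, and 33.4 to 34.8% in peri-injured region 9, the highest of its class. In the 5 injured segments the background share lay between 37.8 and 40.8%.

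The 100 most abundant probes of a segment held 10.1, 8.85 and 10.1% of its counts in healthy regions 1, 3 and 13, and 11.8, 10.1, 11.4 and 10.2% in peri-injured regions 6, 9, 10 and 12, and region 9 was barely above region 1. After thinning to 80259 counts, 18521, 18943 and 18662 probes had a count in the healthy segments, against 17931, 18282, 18086 and 18208 in the peri-injured ones. At equal depth, fewer probes were therefore counted in every peri-injured segment than in any healthy segment. For these 4 measures the classes did not overlap, and the exact permutation p was 0.0571, the smallest that 4 against 3 segments allow. Adjusted by Benjamini-Hochberg over the 10 measures computed, it was 0.143, so that none passed the threshold.

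With all counts, peri-injured segments lay closer to each other than healthy ones did. On the log2 of normalized counts plus 1, the Euclidean distance averaged 38.8 between peri-injured segments, 59.8 between healthy segments, and 58.4 between segments of different classes. The healthy mean was raised by region 13, at 67.4 to 74.8 from all other segments, whereas healthy regions 1 and 3 were 44.4 apart. Peri-injured segments lay 48.3 to 54.0 from healthy regions 1 and 3. With all segments thinned to the total of region 13, the mean distance was 65.0 within peri-injured, 64.5 within healthy and 70.8 between classes. At equal depth the mean distances within the classes were alike, and every distance between classes (68.6 to 74.8) was above every distance within one. Thinning adds counting noise to every segment deeper than region 13, and the mean within peri-injured segments rose from 38.8 to 65.0. The thinned means therefore cannot show that the classes were alike in spread. The labelled classes gave a pseudo-F of 2.47 and took up 33.1% of the variance, with an exact permutation p of 0.0286, the smallest that the 35 assignments allow. Thinned, the pseudo-F was 1.67 with 25.0% of the variance, at the same p.

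**Figure D2:**
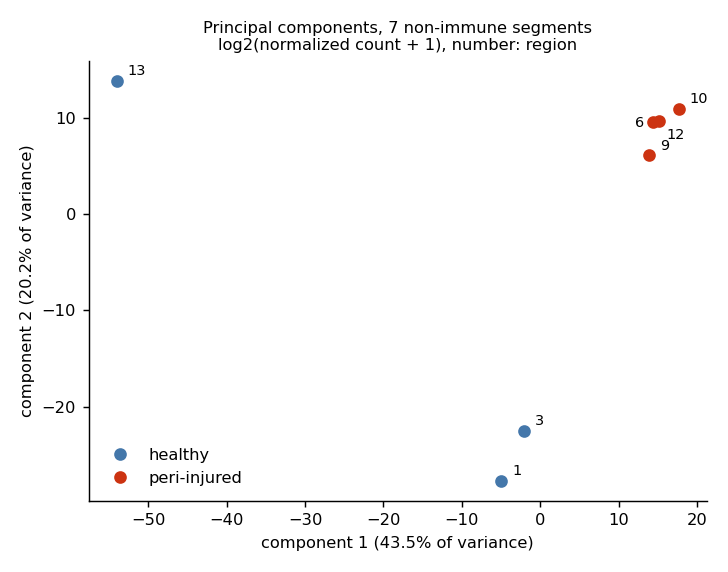
Principal components 1 and 2 (43.5 and 20.2% of the variance) of the 7 non-immune segments, from log2(normalized count + 1) of 6000 probes; each point is a segment with its region number. The 4 peri-injured segments lie together at 13.9 to 17.6 on component 1, healthy region 13, which has the lowest total, lies at -54.0, and healthy regions 1 and 3 are set apart from the peri-injured segments on component 2, at -27.7 and -22.5.

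Between the classes, 271 of 6000 probes were called by edgeR's quasi-likelihood test at a Benjamini-Hochberg adjusted p of at most 0.05, which is 4.52% of the probes tested. Of these, 161 rose in peri-injured segments (2.68%) and 110 fell (1.83%). At an unadjusted p of at most 0.05, 1031 probes differed. The median log2 fold change was 1.30 among the probes that rose and -1.34 among those that fell, beside -0.0035 over all 6000, and the smallest change among the called probes was 0.80 in size. A change of more than 1 in size on the log2 scale was fitted for 134 of the rising and 90 of the falling probes. A log2 fold change over 2 was fitted for 23 of the rising probes, and one below -2 for 25 of the falling ones. Beyond 3 in size there were 4 rising and 6 falling probes.

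The count depended on each healthy library. It fell to 131 (65 higher, 66 lower) when healthy region 1 was left out, to 132 (71 higher, 61 lower) for region 3 and to 164 (81 higher, 83 lower) for region 13, so that rising and falling probes were about even in number with any 2 healthy segments. It was 143 (99 higher, 44 lower) with all segments thinned to 80259 counts. Of the 271 probes, 63 were called with each of the 7 segments left out in turn, 38 of them higher and 25 lower.

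**Figure D3:**
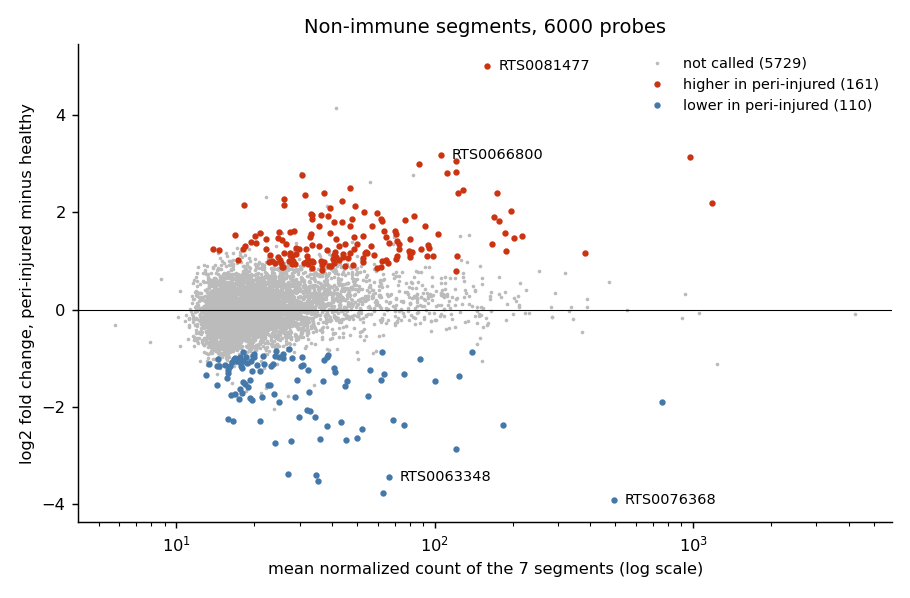
Log2 fold change of peri-injured minus healthy non-immune segments against the mean normalized count of the 7 segments on a log scale, for 6000 probes; red points are the 161 called higher, blue the 110 called lower and gray the others. Rising probes sit mostly at middle and high levels, and the falling probes reach down to the lowest levels. The level includes the peri-injured segments, so that a rise or fall itself moves a probe along this axis.

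Called probes were unevenly spread over abundance. Among the 100 most abundant probes over the 7 segments, 21 were called (16 higher, 5 lower), and among the next 900 there were 131 (98 higher, 33 lower). Of the 3000 least abundant of the 6000, 42 were called, 7 higher and 35 lower. The rising probes had a median level of 22.5 normalized counts in healthy segments and 58.1 in peri-injured ones, where the median of all probes was 19.3 and 19.1. The falling probes went from a median of 36.3 to 13.4.

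The mean level of the 2018 background probes was 6.10 normalized counts over the healthy segments and 4.64 over the peri-injured ones. In peri-injured segments, 17 of the 110 falling probes had a mean under 2 times that background, against 28 of all 6000 probes. In healthy segments, the same held for 24 of the 161 rising probes and 327 of all 6000. For these probes one side of the comparison was close to this estimate of background.

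The classes did not overlap in normalized count for 961 of the 6000 probes (16.0%), with 596 higher and 365 lower in all 4 peri-injured segments. Among the called probes, 154 of 161 rising and 79 of 110 falling ones did not overlap. Of the falling probes, 11 were high in a single healthy segment. Each of these had over 80% of its healthy normalized counts in 1 region (3 probes in region 1, 4 in region 3 and 4 in region 13), with up to 404 normalized counts there. None of these 11 was called with that segment left out, and none was called with robust estimation of the dispersion, an alternative chosen after seeing the data, while DESeq2 called 7. The other 99 falling probes had no such segment. Of the rising probes, none had over 80% of its peri-injured counts in 1 segment. That cut is harder to meet among 4 segments than among 3. The rising probe with the highest fold change came just under it, at 871 normalized counts in region 10 and 23.4 to 163 in the others.

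Peri-injured region 10 had the highest value of its class in 79 of the 161 rising probes, or 49.1%, whereas over all 6000 probes it was highest in 1492, or 24.9%. Region 6 was highest in 28 of the rising probes, region 9 in 20 and region 12 in 34. Region 10 was the largest and the deepest of the 4 segments, and the part of depth in this was not tested. Without it, 186 probes were called (111 higher, 75 lower).

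RTS0081477 had the highest fold change of all called probes. Its normalized count was 13.1, 6.57 and 3.45 in healthy regions 1, 3 and 13, and 163, 23.4, 871 and 36.3 in peri-injured regions 6, 9, 10 and 12. All 4 peri-injured segments were above the healthy ones, though regions 6 and 10 stood well above regions 9 and 12. The study places regions 6 and 10 nearer to the injury, and they were also the deepest and largest of the 4 segments. The part of nearness or depth in this was not tested. The healthy values are close to the background level, and rest on 9, 5 and 1 raw counts. By mean level among the tested probes, RTS0081477 ranked 5989 in healthy segments and 25 in peri-injured ones. Probes were kept by mean share over all non-immune segments, so this one could be kept through its level outside the healthy segments. The log2 fold change was 5.02 (SE 1.14), with an adjusted p of 0.0109 by edgeR's quasi-likelihood test. Without peri-injured region 10 it was 3.20, with an adjusted p of 0.0489. The call was lost with robust estimation of the dispersion (adjusted p = 0.176), and when either healthy region 1 (0.0518) or healthy region 3 (0.0732) was left out. The 5 injured segments ranged from 8.95 to 141, overlapping both classes.

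RTS0066800 rose with less spread. It was at 21.8, 21.0 and 10.4 normalized counts in healthy regions 1, 3 and 13, and at 159, 105, 333 and 91.5 in peri-injured regions 6, 9, 10 and 12. Region 10 was again the highest, and the classes were well apart. The log2 fold change was 3.19 (SE 0.51), with an adjusted p of 3.57e-04, and the call held without each segment in turn. Injured segments lay between 20.7 and 103.

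RTS0076368 fell the furthest. It was the fifth most abundant of the 6000 probes in healthy segments, at 931, 1328 and 925 normalized counts in regions 1, 3 and 13. In peri-injured regions 6, 9, 10 and 12 it was at 124, 66.9, 14.2 and 75.6, with region 10 the lowest. The means were 1061 ± 231 (SD, n = 3) and 70.1 ± 44.9 (SD, n = 4), and the log2 fold change was -3.93 (SE 0.48) with an edgeR adjusted p of 1.94e-05. The injured segments, at 107 to 434, lay below all healthy segments and overlapped the peri-injured class at its upper end.

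RTS0063348 had the smallest standard error of the 4 named probes. It was at 151, 138 and 121 normalized counts in healthy regions 1, 3 and 13, and at 12.3, 15.9, 9.31 and 16.0 in peri-injured regions 6, 9, 10 and 12. The values within each class were close together and the classes were far apart, at means of 137 ± 15.2 (SD, n = 3) and 13.4 ± 3.22 (SD, n = 4). The log2 fold change was -3.44 (SE 0.30), with an edgeR adjusted p of 1.22e-07. The injured segments formed a range of their own between the classes, from 27.6 to 63.9. For each of the 4 named probes, the two-sided exact permutation test over segments gave 0.0571, the smallest p it allows. The probes were named only if their classes did not overlap, so this p was fixed by the choice and adds no support.

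**Figure D4:**
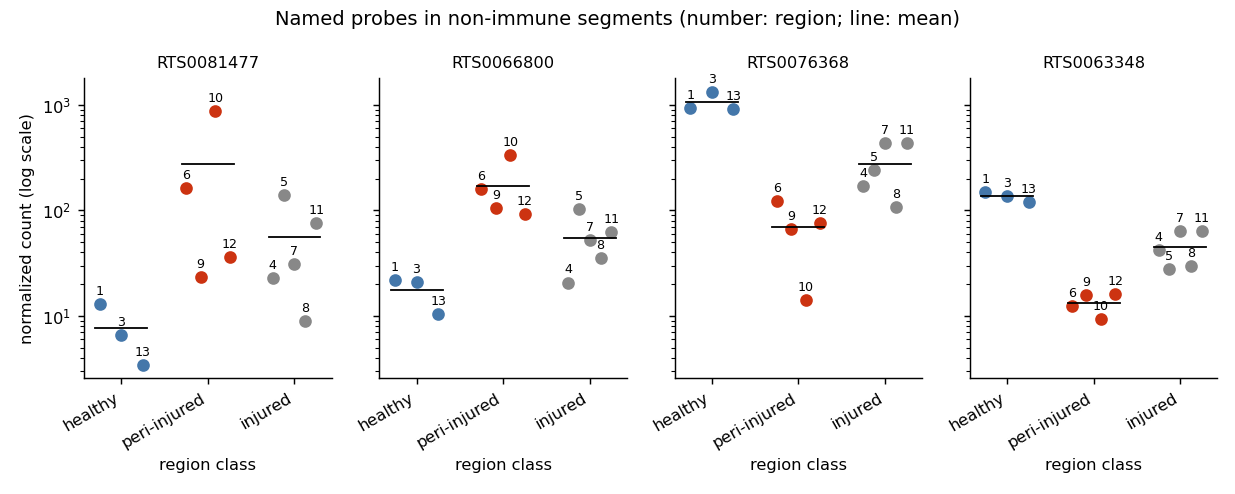
Normalized count on a log scale of the 4 named probes in the non-immune segments of healthy, peri-injured and injured regions; each point is a segment with its region number and each line the class mean. RTS0081477 and RTS0066800 are higher in all 4 peri-injured segments than in the 3 healthy ones, with region 10 at the top, and RTS0076368 and RTS0063348 are lower in all 4.

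Set against the healthy regions, the injured regions gave a log2 fold change of 2.70 (adjusted p = 0.218) for RTS0081477 and 1.52 (adjusted p = 0.115) for RTS0066800, neither of which was called. For RTS0076368 and RTS0063348 it was -1.94 (adjusted p = 0.0117) and -1.59 (adjusted p = 8.09e-04). In the same fit, peri-injured minus injured regions gave 2.32, 1.68, -1.99 and -1.85 in that order of probes, all called by edgeR at adjusted p-values of 0.0186, 0.00223, 0.00253 and 1.26e-04. These comparisons share segments with the main one and are set beside it only.

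Some rising probes were abundant in every peri-injured segment. The third in rank by fold change was at 122, 280 and 121 normalized counts in healthy regions 1, 3 and 13, and at 1409, 2249, 1324 and 1302 in peri-injured regions 6, 9, 10 and 12, with a log2 fold change of 3.15 (SE 0.32). Its injured segments were also high, at 880 to 1580. The fifth in rank differed from it in that respect, as it was at 101, 115, 183 and 155 in the peri-injured segments, at 16.0 to 18.4 in the healthy ones and at 11.5 to 39.0 in the injured ones. Its log2 fold change was 3.00 (SE 0.35). Both were above all healthy segments in each of the 4 peri-injured regions.

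Probes with identifiers next to that of RTS0076368 were also abundant in healthy segments. The probe whose identifier follows that of RTS0076368 was at 1414, 1308 and 1194 normalized counts in healthy regions 1, 3 and 13, and at 645, 281, 201 and 260 in peri-injured regions 6, 9, 10 and 12, a log2 fold change of -1.91 (SE 0.38, edgeR adjusted p = 0.00359). The identifier after that was at 1924, 1376 and 2074 in the healthy segments, and at 1710, 615, 455 and 516 in the peri-injured ones. Its classes overlapped through region 6, and its log2 fold change of -1.12 (SE 0.40) did not pass the test (adjusted p = 0.127). Over the kept probes, 2453 pairs had consecutive identifiers. The probe with the lower number was called in 106 of these pairs. Its neighbour was called in the same direction in 15 of the 106 (12 pairs higher, 3 lower) and in the opposite direction in 2, where 4.52% of all probes were called. The files do not say what consecutive numbers share.

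The probes that rose held 1.75, 1.75 and 1.60% of all counts in healthy regions 1, 3 and 13, and 5.95, 4.89, 6.53 and 5.00% in peri-injured regions 6, 9, 10 and 12. Those that fell held 2.86, 2.61 and 2.86%, and 1.02, 0.772, 0.656 and 0.797%. These shares follow from the choice of the probes. In the injured segments, which that contrast did not use, the rising probes held 1.60 to 3.47% and the falling probes 0.808 to 1.32%.

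The CD68 segments of the same regions, which hold CD45+CD68+ macrophages and are libraries of their own, moved in the same direction for most of these probes. The rising probes took 1.62 to 1.78% of the counts in the 3 healthy CD68 segments and 3.82 to 4.12% in the 4 peri-injured ones. The falling probes took 1.57 to 2.01% and 0.760 to 1.19%. Neither range overlapped between the classes. In the fit over all 24 segments, 157 of the 161 rising and 96 of the 110 falling probes were tested. In CD68 segments, 126 of these 157 (80.3%) had a positive log2 fold change, against 53.0% of all 6000 probes, and 65 of the 96 (67.7%) a negative one, against 47.0%. The median change of the rising probes was 0.77 in CD68 and 1.23 in non-immune segments of this fit, and that of the falling probes -0.45 and -1.34. In CD68 segments 23 of the 157 were called higher, where 1.78% of all probes were, and 9 of the 96 were called lower, where 0.400% of all were. None was called in the opposite direction. CD68 and non-immune segments were collected from the same places in the same 2 mice, and transfer of signal between them was not tested.

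All 4 named probes had the same sign in CD68 segments. The CD68 values below are scaled over all 24 segments, and the non-immune values above over 12, so levels are not comparable. On the 24-segment scale, RTS0081477 was at 76.1, 10.9, 408 and 16.9 in non-immune segments of peri-injured regions 6, 9, 10 and 12. Each of these was below the CD68 value of its region. RTS0076368 was at 459, 619 and 431 in non-immune segments of healthy regions 1, 3 and 13, each above the CD68 value. RTS0081477 was at 5.15, 8.59 and 9.66 normalized counts in CD68 segments of healthy regions 1, 3 and 13, and at 638, 416, 970 and 148 in those of peri-injured regions 6, 9, 10 and 12, a log2 fold change of 6.14 (SE 1.17). RTS0066800 was at 2.58, 12.9 and 0 in the healthy and at 175, 116, 163 and 54.7 in the peri-injured CD68 segments, with a log2 fold change of 4.45 (SE 0.73). Peri-injured values were above all healthy ones for both probes. The falling RTS0076368 was at 255, 148 and 219, and at 25.8, 30.05, 5.72 and 19.3, a log2 fold change of -3.46 (SE 0.51). RTS0063348 was at 23.2, 25.8 and 29.0, and at 10.0, 8.59, 10.0 and 9.66. Its change of -1.40 (SE 0.47) was not called in CD68 segments (edgeR adjusted p = 0.128), and the change in non-immune segments was larger by -2.06 (SE 0.58), a difference that did not pass the test either (adjusted p = 0.159).

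Tested directly, the change from healthy to peri-injured regions differed between the compartments for 9 of 6000 probes (0.150%) by edgeR's quasi-likelihood test, 1 with a higher and 8 with a lower change in the non-immune segments. With the region as a replicate block, which pairs the segments of a region, it differed for 32 probes, 2 and 30 in these directions. At an unadjusted p of at most 0.05, 502 probes differed. The median standard error of this difference was 0.70 on the log2 scale. Leaving out region 1, 13 or 6 left 1 such probe, leaving out region 3 left 3, and leaving out region 9 gave 18. The count was 0 with all segments thinned to 21955 counts, where 358 probes passed an unadjusted p of 0.05.

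Of the 9 probes, 6 were called in CD68 segments, 5 higher and 1 lower, and changed by -0.71 to 0.24 on the log2 scale in non-immune segments. The other 3 were among the falling probes of the non-immune segments. The largest difference belonged to one of them, the sixth in rank by fall. In non-immune segments it was at 43.6, 61.8 and 62.1 normalized counts in healthy regions 1, 3 and 13, and at 7.16, 6.37, 3.10 and 4.36 in peri-injured regions 6, 9, 10 and 12, close to background. Scaled over all 24 segments, its CD68 values were 20.6, 21.5 and 16.1 in healthy and 61.5, 17.2, 37.2 and 12.9 in peri-injured regions. These CD68 classes overlapped. On that scale its non-immune values were 21.5, 28.8 and 29.0 in the healthy and 3.34, 2.97, 1.45 and 2.03 in the peri-injured regions. The difference between the compartments was -4.31 (SE 0.57) on the log2 scale.

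**Figure D5:**
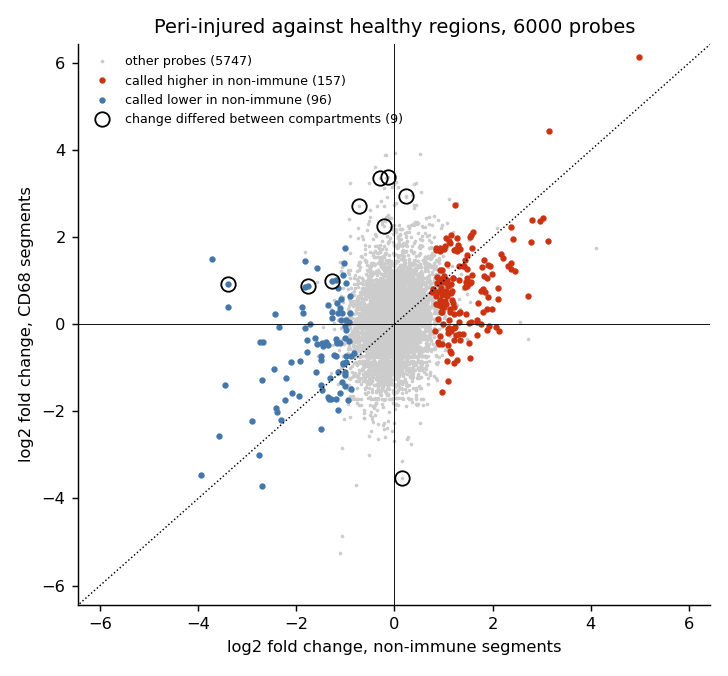
Log2 fold change of peri-injured minus healthy regions in CD68 segments against that in non-immune segments, from the fit over 24 segments and 6000 probes; red and blue points are the probes called higher (157) and lower (96) in non-immune segments, circles the 9 probes whose change differed between the compartments, and the dotted line marks equal change. Most red points lie above 0 and most blue points below 0 on the CD68 axis, and 6 of the circles lie near 0 on the non-immune axis.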

How the data were processed

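GeoMx libraries of 24 segments from 12 regions of formalin-fixed mouse lung, cut at 6 µm, were used with 1 reaction without tissue (1 count from 150068 raw reads). The authors deposited raw counts for each probe. They had trimmed and stitched the reads, aligned them to probe barcodes and collapsed duplicates by molecular identifier with GeoMx NGS Pipeline 2.3.4 per the file headers (2.3.5 per their metadata sheet). The deposited worksheet gave the areas, with no unit. A probe missing from a file was read as 0. Negative control probes are not marked, so no limit of quantitation was computed.

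Of 20175 probes, the 6000 that took the largest mean share of a segment's counts were kept, as the study kept its most abundant targets, and scaled to their 75th percentile; a normalized count is the count divided by this factor. Counts were tested with edgeR 4.0.16 (R 4.3.3), quasi-likelihood test, in 1 fit over 12 non-immune segments with a term for each class, and for the compartments in 1 fit over 24 segments. P-values were adjusted by Benjamini-Hochberg and called at 0.05. Standard errors of log2 fold changes were derived from the F statistic. Single values were compared by exact permutation tests over segments (scipy 1.17.1).

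Named probes are the 2 highest and 2 lowest by log2 fold change among called probes whose 4 and 3 segments did not overlap. The members, lists and tests were chosen with earlier results of these data known. Region numbers pair CD68 and non-immune segments, since both come from the same place, and their deviations from class means correlated by 0.0045 to 0.129 over 12 pairs, with 2 above 0.1. Alternatives were TMM factors, DESeq2 1.42.0 and its size factors, limma 3.58.1 on log2(normalized count + 1), a pseudocount of 5, 10000 probes or all, filterByExpr, 7 segments only, thinning, a replicate block, each segment left out, and, added after the data were seen, scaling to all counts and robust dispersion. Scripts were tested on simulated data.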

Additional observations from a re-analysis of the deposited data

Results flagged for a closer look

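In peri-injured region 10, RTS0081477 was at 871 normalized counts, above the other 3 peri-injured non-immune segments, which were at 23.4 to 163. This was the only one of 14 groups of 4 peri-injured values examined in which a segment met Dixon's criterion, which chance meets in about 1 of 20 groups. The criterion was met narrowly, on normalized counts without logs. RTS0081477 was also chosen for the highest fold change, which region 10 raised.

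The change from healthy to peri-injured regions differed between non-immune and CD68 segments for 9 probes in the test of the difference itself, 8 of them with the lower change in non-immune segments.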

How the results depend on the processing

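The number of probes that differed between peri-injured and healthy non-immune segments stayed within 1.5 times of 271 with the other scalings, filters and tests (228 with DESeq2 to 341 with limma), except for 143 on thinned counts. It ranged from 131 to 264 with 1 segment left out. Higher and lower probes were 161 and 110, but 242 and 99 with limma and 230 and 100 with no filter. They were nearer to even with 10000 probes, at 146 and 125, and with DESeq2 size factors in edgeR, at 155 and 115. Scaling to all counts gave 190 and 86. The 9 probes whose change differed between compartments were 7 with TMM factors or DESeq2, 0 on thinned counts and 32 with the replicate block, and ranged from 1 to 18 with 1 region left out. The pseudo-F of 2.47 ranged from 1.96 to 2.74 with 1 segment left out, where the exact test cannot go below 0.0667 or 0.1. The difference in the share of the single most abundant probe, -0.068 percentage points, ranged from -0.172 to 0.022 with 1 segment left out, and was positive only without healthy region 1. RTS0066800, RTS0076368 and RTS0063348 kept their direction and call under every alternative run, with log2 fold changes of 2.65 to 3.39, -4.41 to -3.56 and -3.53 to -3.26. RTS0081477 ranged from 3.20 to 5.59 and lost its call under 3 alternatives, with the cause not tested. The 75th percentile was 8 counts in healthy region 13, against 62.2 in peri-injured region 10. How far this limits the changes of low probes was not tested.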
